A study of Rattus norvegicus with 30 samples.

Results

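Solute carriers are membrane proteins that move ions, sugars, amino acids, transmitters, metals, nucleosides and metabolites across the plasma membrane and the membranes of organelles. Their genes were followed here on arrays of the rat hippocampus. The members were all probes whose gene symbol consists of Slc, a family number, the letter a and a member number, apart from *Slc1a2*, *Slc1a3* and *Slc4a4*, which were left out by the rule. This gave 278 of the 22523 probes on the array, for 269 genes. Of these, 166 probes (59.7%), each for a different gene, passed a filter on low signal and were tested, beside 52.8% of all probes. Over the 29 arrays, 100 members lay above background on every array and 61 on none. *Slc7a6os* and *Slc4a1ap* fit the pattern of the name but do not encode carriers.

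All animals were adult Sprague Dawley rats, with 1 rat per array. The extreme group (5 females and 5 males) had been exposed to predator scent and then showed an extreme behavioural response. The minimal group (5 females and 4 males with values) had the same exposure and a minimal response. The control group (5 females and 5 males) was not exposed but went through the same behavioural testing. The scent exposure models a traumatic event, and exposed rats were grouped by their behaviour, so the extreme and minimal groups are selected animals rather than 2 treatments. The values are deposited intensities on a log2 scale, on which a difference of 1 is a doubling.

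In the brain, carriers of the families Slc1 and Slc6 clear transmitters from the synapse, and those of Slc17, Slc18 and Slc32 load them into vesicles. Glucose and lactate reach neurons and glia through Slc2 and Slc16 carriers, and large neutral amino acids cross the blood-brain barrier through the heterodimer of *Slc7a5* and *Slc3a2*. The family Slc25 lies in the inner mitochondrial membrane, Slc30 and Slc39 carry zinc, and Slc12 sets neuronal chloride and with it the sign of the response to GABA.

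Quantile normalisation had given every array the same distribution of values. By the values of 8 probes that are no members, the arrays fell into 12 (called set A) and 17 (called set B), a division that the labels do not give. Set A held 3 of 5 female minimal, 3 of 5 female control, 3 of 4 male minimal and 3 of 5 male control rats, and 0 of the 10 extreme rats. Each comparison with extreme rats is therefore partly confounded with the set. For members, values with the set as a block are printed beside it where they change a call. For marker genes and other genes they are printed for some only, so a call given without them is not shown to hold with the block. A further 4 arrays, of female extreme 5, female minimal 3, female control 2 and male minimal 2, had the highest choroid plexus markers, and male extreme 4 had the lowest median correlation with the other arrays (0.964). All 5 hippocampus markers found on the array, of 6 searched, passed the filter. In whole tissue, fewer cells of a type and less RNA per cell cannot be told apart.

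Promoter sequences are shown for the members other than *Slc41a1* that passed the threshold between extreme and control rats, and for *Slc16a1*, which had the largest positive difference past the threshold between extreme and minimal females. They come from RefSeq (build GRCr8), and each runs from 250 bases before to 50 bases after the gene's start. Of the 166 members tested, 135 matched an entry by symbol. Capitals mark the E-box CACGTG and the CCAAT box (CCAAT, or ATTGG where it lies on the other strand), both searched on both strands and chosen after the sequences had been seen.
*Slc16a1*, chr2:194812410-194812709, plus strand: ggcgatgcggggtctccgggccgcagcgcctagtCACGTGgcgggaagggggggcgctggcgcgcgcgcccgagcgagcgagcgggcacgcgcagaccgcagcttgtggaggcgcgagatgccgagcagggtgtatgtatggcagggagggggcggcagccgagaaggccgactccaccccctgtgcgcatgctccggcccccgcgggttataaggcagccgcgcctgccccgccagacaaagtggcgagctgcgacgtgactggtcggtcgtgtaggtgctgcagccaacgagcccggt
*Slc7a5*, chr19:66872363-66872662, minus strand: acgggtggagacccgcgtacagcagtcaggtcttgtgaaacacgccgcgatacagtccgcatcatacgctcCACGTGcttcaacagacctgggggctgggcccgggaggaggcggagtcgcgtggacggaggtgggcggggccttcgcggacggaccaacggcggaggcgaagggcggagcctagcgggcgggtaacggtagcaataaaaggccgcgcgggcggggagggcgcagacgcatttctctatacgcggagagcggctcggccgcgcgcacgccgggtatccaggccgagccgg
*Slc2a8*, chr3:36682085-36682384, minus strand: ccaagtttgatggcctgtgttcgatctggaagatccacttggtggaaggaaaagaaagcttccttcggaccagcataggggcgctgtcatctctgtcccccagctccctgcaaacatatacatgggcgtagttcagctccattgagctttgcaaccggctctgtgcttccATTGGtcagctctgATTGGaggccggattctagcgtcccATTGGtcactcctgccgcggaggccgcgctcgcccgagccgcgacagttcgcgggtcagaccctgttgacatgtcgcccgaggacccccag
*Slc15a4*, chr12:34698725-34699024, plus strand: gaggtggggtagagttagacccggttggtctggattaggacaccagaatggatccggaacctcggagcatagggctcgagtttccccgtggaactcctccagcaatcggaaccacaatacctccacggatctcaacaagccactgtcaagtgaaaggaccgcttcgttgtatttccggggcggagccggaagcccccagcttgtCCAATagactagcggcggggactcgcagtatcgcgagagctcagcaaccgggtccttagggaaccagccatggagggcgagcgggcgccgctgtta
The windows of *Slc16a1* and *Slc7a5* each held 1 E-box, that of *Slc2a8* held 3 CCAAT boxes and that of *Slc15a4* held 1. Of all 33469 promoters of this length, 6.42% held the E-box and 37.5% the CCAAT box. Among the 142 promoters of tested members the shares were 13.4% and 37.3%. A match of these letters is a description of the window and not a binding site.

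Few solute carriers differed between the groups. In females, 3 of 166 members (1.81%) passed the threshold between extreme and control rats (limma, adjusted p below 0.05 over all 11888 probes tested), beside 1% of all probes (0.58% higher and 0.421% lower). *Slc2a8* and *Slc7a5* were higher and *Slc41a1* was lower in extreme females. This count was 1 without female control 4, 6 without female control 2 or male extreme 4, and 10 with array weights (6.02% of members, beside 3.5% of all probes). Between extreme and minimal females, 5 members (3.01%) passed, beside 3.79% of all probes (1.36% higher and 2.42% lower): *Slc16a1* and *Slc29a3* were higher and *Slc41a1*, *Slc38a2* and *Slc37a4* lower in extreme females. With the set as a block, 2 of these remained (*Slc16a1* and *Slc41a1*), and the same 2 remained without the 4 arrays highest in choroid plexus markers. Leaving out 1 rat gave 2 to 7 members (2 without female minimal 1 or 3), and array weights gave 9 (5.42%, beside 5.86% of all probes). In males, 1 member (0.602%), *Slc15a4*, passed between extreme and control rats and was lower in extreme males, beside 0.622% of all probes (0.168% higher and 0.454% lower). In this fit the shares of members past the threshold lay near those of all probes.

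No member passed between extreme and minimal males, where 0.0757% of all probes did (0.0336% higher and 0.0421% lower) and 21 members (12.7%) had an unadjusted p below 0.05 in limma, beside 15.1% of all probes. Between minimal and control rats no member passed in either sex, where the share over all probes was 0%, and 15 members (9.04%, beside 11.1% of all probes) in females and 6 (3.61%, beside 4.24%) in males had an unadjusted p below 0.05. The members with the smallest unadjusted p between minimal and control females were *Slc25a16* (0.25 ± 0.08, SE), *Slc6a15* (−0.27 ± 0.09), *Slc3a2* (0.25 ± 0.09), *Slc49a4* (−0.21 ± 0.08) and *Slc45a1* (0.21 ± 0.08), with adjusted p between 0.276 and 0.356. Between minimal and control males they were *Slc15a4* (−0.27 ± 0.09), *Slc39a1* (0.29 ± 0.11), *Slc6a8* (−0.27 ± 0.10), *Slc25a46* (0.30 ± 0.13) and *Slc22a23* (0.18 ± 0.08), with adjusted p between 0.951 and 0.998.

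The median difference of the members lay close to 0 in each contrast. It was 0.01 between extreme and control females, 0.04 between extreme and minimal females, 0.01 between extreme and control males and 0 between extreme and minimal males. Over all probes these medians were −0.01, 0, −0.01 and −0.01. The values of single members between extreme and control females ran from −0.75 for *Slc3a1* to 0.61 for *Slc4a2*, neither of which passed the threshold.

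**Figure D1:**
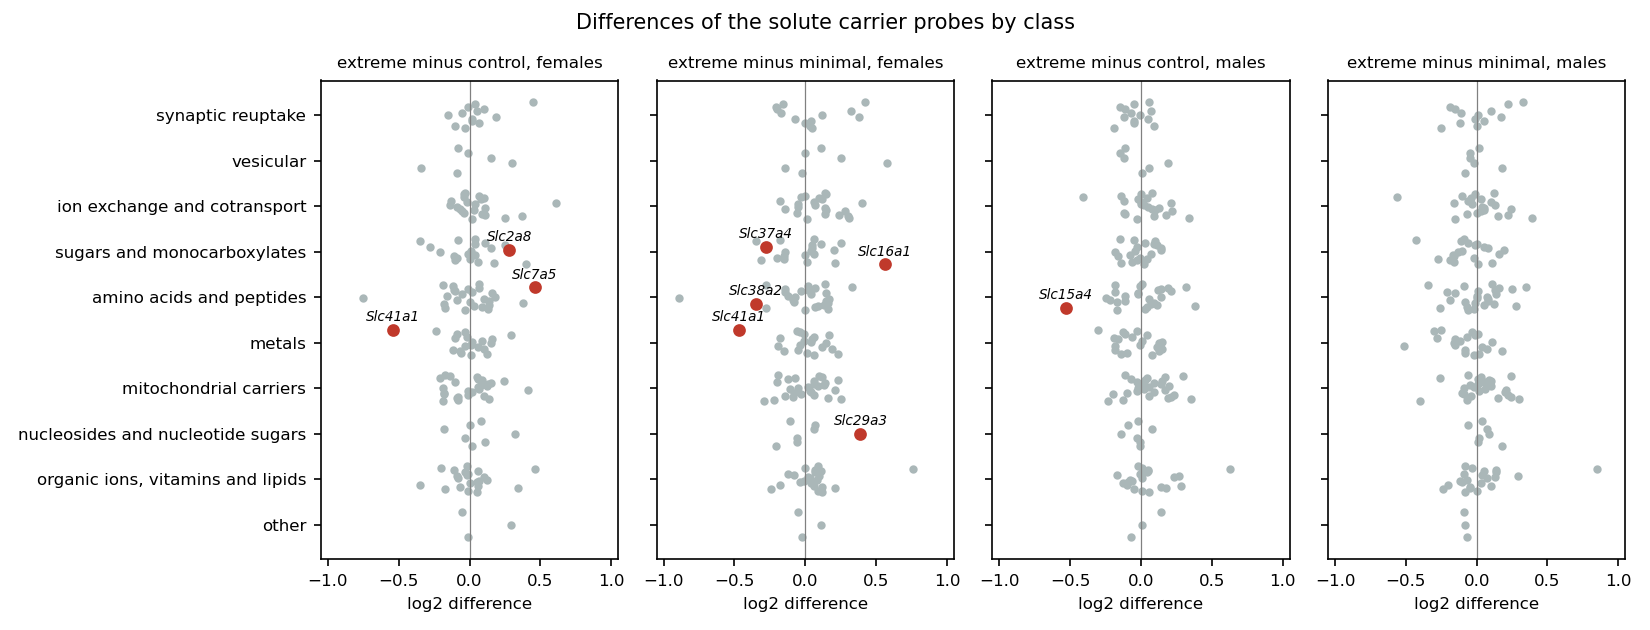
Log2 differences of the 166 solute carrier probes tested, 1 point per probe, by class of carrier (rows) in 4 comparisons (panels). Red labelled points passed the adjusted threshold, with 3, 5, 1 and 0 of them from left to right, and the points of every class lie on both sides of 0 apart from the small class other.

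Metal carriers gave the member with the smallest adjusted p in both female contrasts with extreme rats. *Slc41a1* encodes a magnesium transporter of the plasma membrane. Its values in extreme females were 7.11, 6.81, 6.75, 6.82 and 6.78. In minimal females they were 7.39, 7.40, 7.23, 7.17 and 7.44, and in control females 7.41, 7.29, 7.45, 7.37 and 7.43. The 5 extreme females lay below all 10 other females. The difference was −0.54 ± 0.08 (SE) against controls (adjusted p = 0.000434; with the set as a block −0.47, adjusted p = 0.00273) and −0.47 ± 0.08 against minimal females (adjusted p = 0.00104; with the block −0.40, adjusted p = 0.00641). The probe was dim: the background limit was 7.03, and 1 of 5 extreme females lay above it, beside all 5 in each other female group, so 4 of the 5 extreme values lie in the background and the fitted size is limited by it: it is no measure of how far the transcript itself is lower.

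Extreme males had *Slc41a1* values of 6.97, 6.97, 7.03, 7.12 and 6.90. The values of 6.97, 6.97 and 6.90 lay below the background limit of 7.03. The sizes of the differences below that include extreme males are therefore limited by background too. Minimal males had 7.26, 7.25, 7.26 and 7.22, and control males 7.21, 7.48, 7.28, 7.45 and 7.05. The extreme males lay below the 4 minimal males and overlapped with the controls through 1 control rat, male control 5. The difference from control males was −0.30 ± 0.08 and did not pass (adjusted p = 0.0647). Within set B the difference was −0.49 in females (5 extreme and 2 control rats) and −0.13 in males (5 and 2 rats). Over both sexes *Slc41a1* averaged 7.10 ± 0.22 (SD, n = 19) in exposed rats and 7.34 ± 0.14 (n = 10) in controls, a fitted difference of −0.24 ± 0.05 (adjusted p = 0.0412), the 1 member (0.602%) past the threshold in that contrast, beside 0.109% of all probes (0.0757% higher and 0.0336% lower). The differences of minimal from control rats were −0.07 ± 0.08 in females and −0.05 ± 0.08 in males and did not pass (adjusted p = 0.795 and 0.998), against the −0.54 and −0.30 of extreme rats. The exposure call was lost with the set as a block (adjusted p = 0.0577) and when any 1 of 22 of the 29 rats was left out. Both female calls of *Slc41a1* held in each of the 37 alternatives it could be tested in. The other members by p in the exposure contrast were *Slc15a4* (−0.22 ± 0.05), *Slc7a5* (0.22 ± 0.06), *Slc45a1* (0.17 ± 0.05) and *Slc22a17* (0.22 ± 0.07), none of which passed. A second *Slc41a1* probe, with a mean of 6.77, was above background on 0 arrays, so the pattern rests on 1 probe.

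Zinc carriers of the synapse and the cell surface showed no such difference. *Slc30a3*, which loads zinc into glutamatergic vesicles, averaged 7.69 ± 0.14 (SD) in extreme, 7.75 ± 0.16 in minimal and 7.81 ± 0.25 in control females, and 7.66 ± 0.12, 7.74 ± 0.18 and 7.84 ± 0.17 in extreme, minimal and control males. *Slc39a10*, a zinc importer, averaged 7.31 ± 0.12, 7.28 ± 0.25 and 7.29 ± 0.14 in extreme, minimal and control females. The extreme groups of both genes overlapped with the others. Of 20 metal carriers tested, 1 (5%, beside 1% and 3.79% of all probes) passed in each of the female contrasts with extreme rats and 0 in the male ones.

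Carriers of sugars and monocarboxylates held 3 of the members that passed in females. *Slc16a1*, which carries lactate, pyruvate and ketone bodies and is found in brain endothelium and oligodendrocytes, had values of 10.26, 9.92, 9.98, 10.27 and 10.16 in extreme females. Minimal females had 9.61, 9.58, 9.33, 9.96 and 9.34, and control females 9.73, 9.74, 9.82, 9.51 and 9.82. All extreme females lay above all controls, and they overlapped with the minimal group only through female minimal 4. *Slc16a1* was higher by 0.56 ± 0.10 against minimal females (adjusted p = 0.00266; with the block 0.52, adjusted p = 0.0106). Within set B this difference was 0.35 (5 extreme and 2 minimal rats). Against controls the difference of 0.40 ± 0.10 did not pass (adjusted p = 0.0551). The call against minimal females held when any 1 rat was left out, with adjusted p from 0.000343 to 0.0123.

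In males *Slc16a1* averaged 9.62 ± 0.08 in extreme, 9.61 ± 0.08 in minimal and 9.60 ± 0.19 in control males (SD). The difference between the sexes, male effect minus female effect, was −0.54 ± 0.15 for extreme against minimal rats and did not pass (adjusted p = 0.268). Some markers of the cells that are known to express *Slc16a1* passed in the same contrast. Of 5 endothelium and pericyte marker probes kept, 2 passed (40%, beside 3.79% of all probes). They were for *Cd93* (0.80 ± 0.15, adjusted p = 0.00257) and *Tie1* (0.40 ± 0.09, adjusted p = 0.0148). A second *Tie1* probe did not pass, with values from 7.30 to 7.52 in extreme and 7.14 to 7.43 in minimal females. The other probes kept were for *Cldn5* and *Tek*, and no pericyte marker was kept. All 5 probes had a higher mean in extreme females, with a median difference of 0.19. Of the 5, 3 (60%, beside 18.4% of all probes) had an unadjusted p below 0.05 in limma. *Flt1* and *Rgs5* did not pass the filter. Of 8 oligodendrocyte marker probes, 2 passed (25%, beside 3.79% of all probes), for *Olig1* (0.55 ± 0.12, adjusted p = 0.00807) and *Cnp* (0.52 ± 0.15, adjusted p = 0.0434). All 8 had a higher mean in extreme females, with a median difference of 0.36. Of these, 4 (50%, beside 18.4% of all probes) had an unadjusted p below 0.05 in limma. The calls of *Cd93*, *Tie1*, *Olig1* and *Cnp* are given without the set as a block.

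The summed intensity of the endothelium and pericyte markers ran from 3493 to 4465 in extreme females, 2966 to 4025 in minimal females and 3259 to 4284 in control females. That of the oligodendrocyte markers ran from 19948 to 29247 in extreme, 15226 to 23950 in minimal and 15196 to 23407 in control females. The female groups overlapped on both sums. The part of these cells in the *Slc16a1* difference was not tested.

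*Slc2a8* encodes a glucose transporter of intracellular membranes. Extreme females had values of 8.01, 8.15, 8.14, 8.02 and 8.12. Minimal females had 7.93, 7.78, 7.89, 7.90 and 7.92, and controls 7.84, 7.72, 7.90, 7.80 and 7.81. The extreme females lay above all other females. The difference from controls was small, at 0.28 ± 0.06 (adjusted p = 0.0189; with the block 0.27, adjusted p = 0.0382). It was lost when female control 4 or female extreme 2, 3 or 5 was left out (adjusted p up to 0.0589) and without the 4 arrays highest in choroid plexus markers (0.24, adjusted p = 0.0997). In males *Slc2a8* averaged 8.08 ± 0.09 in extreme, 7.89 ± 0.12 in minimal and 7.94 ± 0.09 in control rats (SD), with no call.

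*Slc37a4*, the glucose 6-phosphate transporter of the endoplasmic reticulum, went the other way. It was 9.29, 9.39, 9.33, 9.36 and 9.31 in extreme females. It was 9.74, 9.55, 9.65, 9.51 and 9.63 in minimal and 9.47, 9.51, 9.82, 9.55 and 9.70 in control females. All 5 extreme females lay below the other 10. The difference was −0.28 ± 0.07 against minimal females (adjusted p = 0.0286) and −0.28 ± 0.07 against controls, where it did not pass (adjusted p = 0.0636). With the set as a block the difference from minimal females was −0.18 (adjusted p = 0.135), and within set B it was −0.19. Its call ended when female minimal 1, 3 or 5 or female extreme 1, 3 or 5 was left out, with adjusted p up to 0.0814.

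The neuronal glucose transporter *Slc2a3* was dim, with means between 6.97 and 7.14 in the 6 groups, and did not pass in any contrast. The endothelial glucose transporter *Slc2a1* was above background on 0 arrays and could not be tested. Of the 20 members of the class, 1 (5%, beside 1% of all probes) passed between extreme and control females, 2 (10%, beside 3.79%) between extreme and minimal females, and 0 in either male contrast with extreme rats. These shares rest on 1 and 2 genes.

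**Figure D2:**
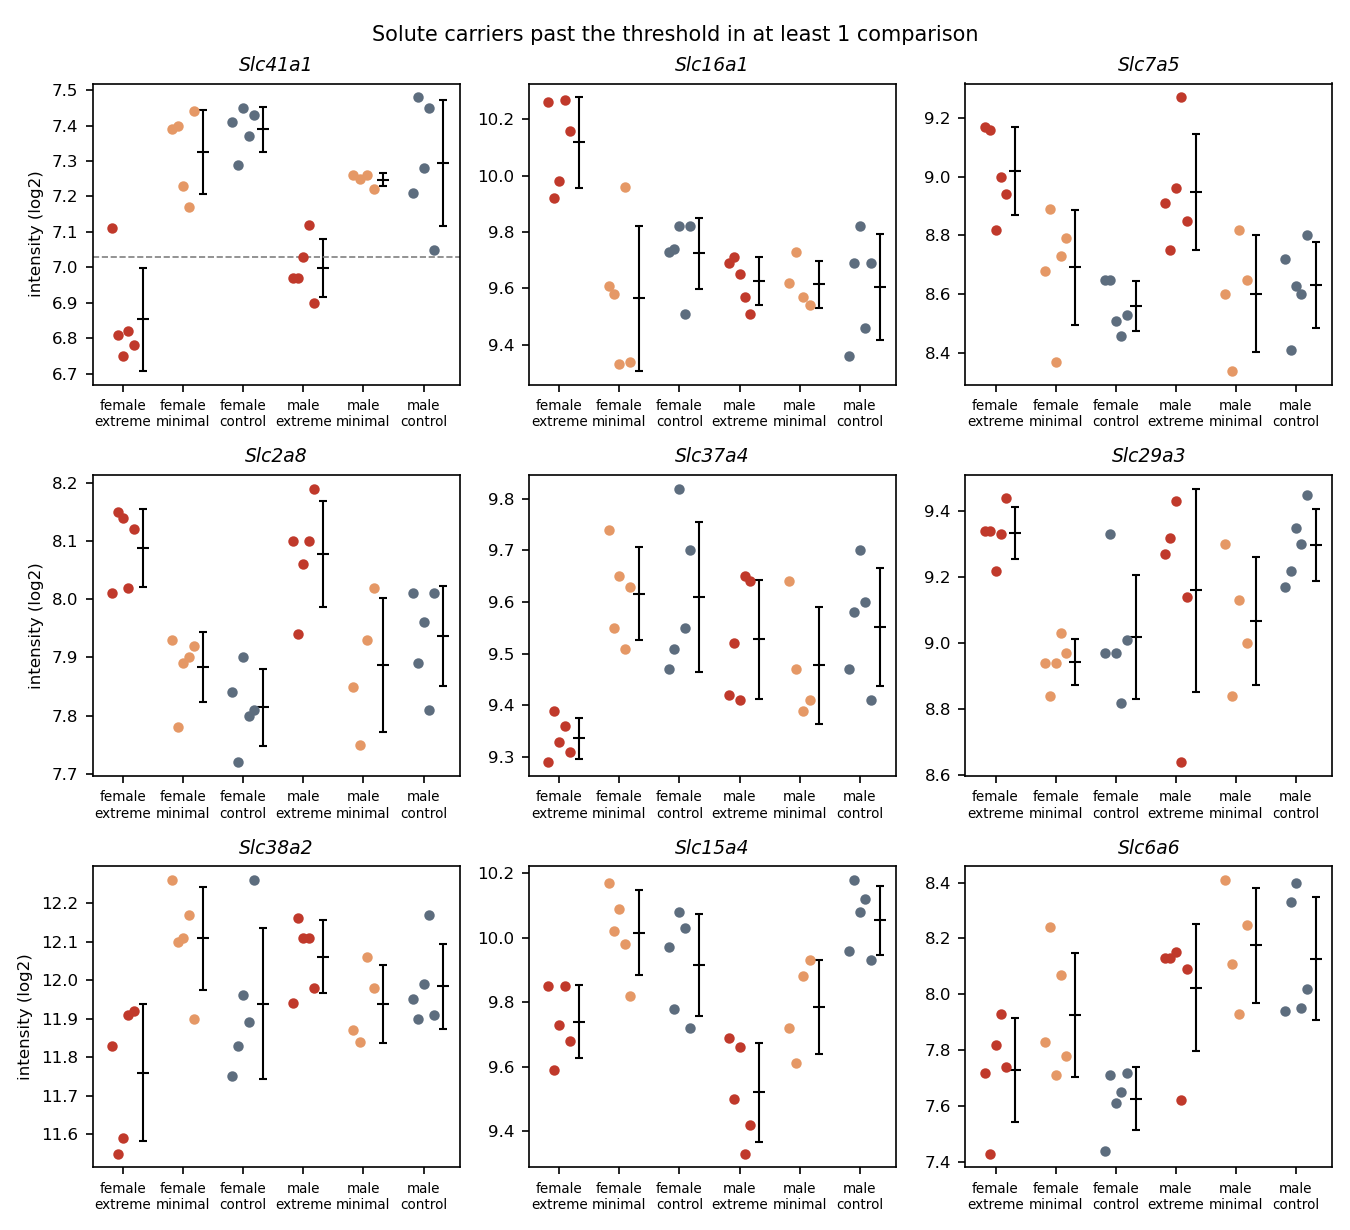
Intensity (log2) of the 9 solute carriers past the threshold in at least 1 comparison, 1 point per rat, in the 6 groups; black bars are the group mean and SD, and the dashed line in the *Slc41a1* panel is the background limit of 7.03. The extreme females stand below the other females for *Slc41a1* and *Slc37a4* and above them for *Slc2a8*, and the extreme males lie below the control males for *Slc15a4*.

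Amino acid and peptide carriers held 1 member past the threshold in each of the contrasts of extreme and control females, extreme and minimal females, and extreme and control males, and these were different genes. Each is 3.85% of the 26 tested, beside 1%, 3.79% and 0.622% of all probes. *Slc7a5* is the light chain of the exchanger that brings leucine, phenylalanine, tryptophan and thyroid hormone across the blood-brain barrier. Extreme females had *Slc7a5* values of 9.17, 9.16, 8.82, 9.00 and 8.94. Minimal females had 8.68, 8.89, 8.37, 8.73 and 8.79, and controls 8.65, 8.65, 8.51, 8.46 and 8.53. Every extreme female lay above every control, while female minimal 2 overlapped with the extreme group. The difference from controls was 0.46 ± 0.10 (adjusted p = 0.0212).

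With the set as a block the *Slc7a5* difference was 0.34 and no longer passed (adjusted p = 0.074), and within set B it was 0.37. Leaving out female control 3, 4 or 5 or female extreme 1 or 2 also ended the call (adjusted p up to 0.0692). In the contrast of extreme and control females, 1 of 6 neuron markers passed (16.7%, beside 1% of all probes). This was *Tubb3* (0.68 ± 0.17, adjusted p = 0.0468, and 0.138 with the block). Of the 6, 4 had a lower mean in extreme females, and their median difference was −0.05. All 8 oligodendrocyte markers had a higher mean in extreme females, with a median difference of 0.43, and 0 passed. Of these 8, 5 (62.5%, beside 13.2% of all probes) had an unadjusted p below 0.05 in limma. All 5 endothelium and pericyte marker probes, 2 of them for *Tie1*, had a higher mean in extreme females. Of these, 0 passed and 2 (40%, beside 13.2% of all probes) had an unadjusted p below 0.05 in limma. The summed endothelium and pericyte markers ran from 3493 to 4465 in extreme and 3259 to 4284 in control females. The summed neuron markers ran from 23919 to 27724 in extreme and 22310 to 30897 in control females, and the part of these cells in the female calls was not tested.

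Extreme males had *Slc7a5* values of 8.91, 8.75, 8.96, 9.27 and 8.85, minimal males 8.60, 8.34, 8.82 and 8.65, and control males 8.72, 8.41, 8.63, 8.60 and 8.80. The extreme males overlapped with both groups. The differences of 0.32 ± 0.10 from controls (adjusted p = 0.114) and 0.35 ± 0.11 from minimal males (adjusted p = 0.135) did not pass, and they were 0.20 and 0.19 with the set as a block.

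The heavy chain of the same exchanger, *Slc3a2*, averaged 11.72 ± 0.08 in extreme, 11.79 ± 0.10 in minimal and 11.54 ± 0.13 in control females (SD). Its difference between extreme and control females was 0.18 ± 0.09 (adjusted p = 0.389). In males it averaged 11.77 ± 0.20, 11.69 ± 0.13 and 11.62 ± 0.14 in extreme, minimal and control rats. *Slc7a11*, the cystine and glutamate exchanger that also pairs with *Slc3a2*, was dim, with group means from 6.87 to 7.09 and no call.

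*Slc38a2* and *Slc38a1* carry glutamine and other small neutral amino acids into neurons, among other cells. *Slc38a2* was 11.83, 11.55, 11.59, 11.91 and 11.92 in extreme females and 12.26, 12.10, 12.11, 12.17 and 11.90 in minimal females, with controls at 11.75, 11.83, 11.96, 11.89 and 12.26. Extreme females were lower than minimal females (−0.35 ± 0.09, adjusted p = 0.0283), and the groups overlapped through female minimal 5. The call was lost with the set as a block (−0.32, adjusted p = 0.0711), with females fitted alone (adjusted p = 0.0689), without the 4 arrays highest in choroid plexus markers (adjusted p = 0.0548) and without any 1 of female minimal 1, 3 and 4 and female extreme 2 and 3. In males *Slc38a2* averaged 12.06 ± 0.10 in extreme and 11.94 ± 0.10 in minimal rats (SD). The sex difference of this contrast was 0.47 ± 0.13 and did not pass (adjusted p = 0.268).

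*Slc38a1* was 8.34, 8.33, 8.17, 8.57 and 8.13 in extreme males and 7.77, 7.98, 8.12, 7.87 and 7.92 in control males. The 2 groups did not overlap, but the difference of 0.38 ± 0.09 did not pass (adjusted p = 0.0559). With the set as a block it was 0.35 (adjusted p = 0.102). In females *Slc38a1* averaged 8.02 ± 0.07 in extreme, 7.93 ± 0.19 in minimal and 8.00 ± 0.16 in control rats (SD).

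*Slc15a4* encodes the transporter that moves histidine and small peptides out of lysosomes and endosomes. It was 9.69, 9.50, 9.66, 9.33 and 9.42 in extreme males. Minimal males had 9.72, 9.61, 9.88 and 9.93, and control males 9.96, 10.18, 10.08, 10.12 and 9.93. Every extreme male lay below every control male, with the minimal group between and overlapping with both. The difference from controls was −0.53 ± 0.09 (adjusted p = 0.00526; with the block −0.50, adjusted p = 0.0181), and within set B it was −0.42 (5 extreme and 2 control rats).

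The *Slc15a4* call held when any 1 rat was left out (adjusted p from 0.00436 to 0.0309) and was lost when males were fitted alone, with the same difference (adjusted p = 0.0731). Female values averaged 9.74 ± 0.11 in extreme, 10.02 ± 0.13 in minimal and 9.91 ± 0.16 in control rats (SD). In the same male contrast the hippocampus marker *C1ql2* was lower by the test (−0.84 ± 0.20, adjusted p = 0.0467, and 0.0936 with the block). It was the only 1 of 5 such markers to pass (20%, beside 0.622% of all probes). In extreme males 4 of the 5 had a lower mean, while *Wfs1* was higher by 0.46 and did not pass. The summed intensity of the 5 ran from 2995 to 4337 in extreme and 3322 to 4476 in control males, and its part in the *Slc15a4* difference was not tested. The sex difference of the *Slc15a4* effect was −0.36 ± 0.12 for extreme against control rats and did not pass (adjusted p = 0.398).

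Among nucleoside carriers, *Slc29a3*, an equilibrative nucleoside transporter of lysosomes and mitochondria, was higher in extreme females. Its values were 9.34, 9.34, 9.22, 9.33 and 9.44 in extreme, 8.94, 8.84, 8.94, 9.03 and 8.97 in minimal and 8.97, 9.33, 8.97, 8.82 and 9.01 in control females. The extreme and minimal females did not overlap, while female control 2 lay among the extreme rats. The difference between extreme and minimal females was 0.39 ± 0.11 (adjusted p = 0.0385), and 0.35 with the set as a block (adjusted p = 0.0991). Without the 4 arrays highest in choroid plexus markers it was 0.37 (adjusted p = 0.0987). The call ended without any 1 of female minimal 1, 2, 3 and 5 and female extreme 1, 2, 4 and 5 (adjusted p up to 0.0852).

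In males *Slc29a3* averaged 9.16 ± 0.31 in extreme, 9.07 ± 0.20 in minimal and 9.30 ± 0.11 in control rats (SD), with male extreme 4 the lowest of all rats at 8.64. The equilibrative transporter of the plasma membrane, *Slc29a1*, which takes up adenosine, averaged 7.85 ± 0.19 in extreme and 7.75 ± 0.20 in control females and 7.88 ± 0.18 and 7.89 ± 0.12 in extreme and control males. It did not pass in any contrast.

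Synaptic transporters gave no call between the behavioural groups. Of 13 reuptake carriers tested, 0 passed in the contrasts of extreme with control and with minimal rats in either sex, with 1, 5, 1 and 2 at an unadjusted p below 0.05 in limma (extreme against control and minimal females, then extreme against control and minimal males). Those are 7.69%, 38.5%, 7.69% and 15.4% of the class, beside 13.2%, 18.4%, 16.5% and 15.1% of all probes. *Slc1a1*, the neuronal glutamate transporter, averaged 12.01 ± 0.07 in extreme, 11.95 ± 0.07 in minimal and 12.04 ± 0.11 in control females, and 11.65 ± 0.22, 11.90 ± 0.15 and 11.84 ± 0.16 in extreme, minimal and control males (SD). *Slc6a11*, a GABA transporter of astrocytes, was dim, with group means from 6.93 to 7.20.

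The 1 reuptake carrier that passed any contrast was *Slc6a6*, the taurine transporter, between the sexes. It was higher in males, which ran from 7.62 to 8.41 with a median of 8.12, than in females, which ran from 7.43 to 8.24 with a median of 7.72. The difference, male minus female, was 0.35 ± 0.07 (adjusted p = 0.02), and the sexes overlapped. It was the only member of 166 (0.602%) past the threshold, beside 0.21% of all probes (0.0925% higher and 0.118% lower in males). The call was lost without male minimal 1 (adjusted p = 0.0557) and without the 4 arrays highest in choroid plexus markers (adjusted p = 0.0842), at an unchanged difference of 0.35 in the second case. The next members by p were *Slc1a1* (−0.20 ± 0.05, adjusted p = 0.109), *Slc30a7* (−0.12 ± 0.04), *Slc6a15* (−0.18 ± 0.06) and *Slc16a1* (−0.19 ± 0.06), none of which passed. In the labels all females have rat numbers starting with F and all males numbers ending in R. Whether the arrays of the sexes were run together is not given. Sex and this division of the rats therefore cannot be told apart, here or in the other comparisons of the sexes.

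The vesicular glutamate transporters did not pass either. *Slc17a7*, the form of hippocampal pyramidal cells and granule cells, averaged 9.26 ± 0.37 in extreme, 9.01 ± 0.30 in minimal and 9.11 ± 0.33 in control females, and 9.01 ± 0.22, 9.06 ± 0.23 and 9.12 ± 0.43 in extreme, minimal and control males (SD). Of 6 vesicular carriers tested, 0 passed in the 4 contrasts with extreme rats. An unadjusted p below 0.05 in limma was found for 1 between extreme and control females (16.7%) and for 0 in each other contrast. The shares of all probes were 13.2% and 18.4% for extreme against control and minimal females, and 16.5% and 15.1% for males. The vesicular GABA transporter *Slc32a1* was not analysed here.

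Ion carriers likewise gave no call. *Slc12a5*, the neuronal potassium-chloride cotransporter that keeps chloride low, was 12.12, 12.07, 12.22, 12.09 and 12.00 in extreme females and 12.42, 12.33, 12.02, 12.18 and 11.81 in extreme males. Minimal females had 11.71, 11.97, 11.59, 12.01 and 11.66, and minimal males 11.62, 11.49, 12.04 and 11.91. Control females had 12.04, 12.01, 11.65, 11.69 and 11.83, and control males 11.92, 11.86, 11.71, 11.62 and 11.93. The extreme rats were on average higher in both sexes and overlapped with the other groups in all contrasts.

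The *Slc12a5* differences of extreme rats were 0.25 ± 0.11 and 0.31 ± 0.11 from control and minimal females, and 0.34 ± 0.11 and 0.39 ± 0.12 from control and minimal males (adjusted p from 0.123 to 0.322). With the set as a block they were 0.08, 0.14, 0.17 and 0.17. *Slc4a10*, a neuronal bicarbonate transporter, averaged 7.45 ± 0.08 in extreme and 7.59 ± 0.22 in control females and 7.45 ± 0.43 and 7.43 ± 0.21 in extreme and control males (SD). *Slc9a2*, a sodium-proton exchanger, differed by −0.56 ± 0.18 between extreme and minimal males (adjusted p = 0.143), with male extreme 4 at 7.14 and the next lowest extreme male at 8.14. *Slc8a1*, a sodium-calcium exchanger, was above background on 3 arrays and was not tested.

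Mitochondrial carriers were the class with the largest share of probes tested apart from the 3 Slc66 probes, at 27 of 35 (77.1%). None passed between extreme rats and either other group in either sex, and 4, 5, 5 and 3 had an unadjusted p below 0.05 in limma in the order extreme against control and minimal females, then extreme against control and minimal males. Those are 14.8%, 18.5%, 18.5% and 11.1% of the class, beside 13.2%, 18.4%, 16.5% and 15.1% of all probes. *Slc25a4*, the adenine nucleotide translocator of excitable tissue, averaged 13.50 ± 0.06 in extreme, 13.27 ± 0.16 in minimal and 13.41 ± 0.14 in control females (SD). *Slc25a5*, its broadly expressed relative, averaged 12.53 ± 0.07, 12.41 ± 0.08 and 12.48 ± 0.09 in the same groups.

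*Slc25a1*, the citrate carrier, had the smallest p of the members between extreme and minimal males. Extreme males had 9.92, 9.79, 10.08, 9.98 and 10.31, and minimal males 10.53, 10.47, 10.31 and 10.35. The 2 groups met at 10.31 to 2 decimals and did not overlap. The difference of −0.40 ± 0.11 did not pass (adjusted p = 0.0968) and was −0.26 with the set as a block (adjusted p = 0.36). *Slc25a22*, a mitochondrial glutamate carrier, lay at or near background, with group means from 6.87 to 7.07.

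Organic ion, vitamin and lipid carriers included 22 tested of 52 probes, the lowest share of the classes (42.3%), and 0 passed in the 4 contrasts with extreme rats, with 3, 1, 3 and 1 (13.6%, 4.55%, 13.6% and 4.55%) at an unadjusted p below 0.05 in limma, beside the same shares of all probes as given for the mitochondrial class. *Slc22a5*, the carnitine transporter, averaged 8.23 ± 0.21 in extreme and 8.58 ± 0.16 in control females (−0.35 ± 0.14, adjusted p = 0.241). *Slc27a1*, a fatty acid transport protein, averaged 9.35 ± 0.11 in extreme and 9.23 ± 0.15 in control females. No probe of the families Slc23, Slc34 and Slc47 passed the filter.

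The largest difference of any member between extreme and minimal rats in either direction in males was that of *Slc48a1*, which exports heme from endosomes and lysosomes, and its values followed the set of arrays. The 12 rats of set A had *Slc48a1* values from 8.24 to 8.99 with a median of 8.72. The 17 rats of set B ran from 9.06 to 10.18 with a median of 9.56, so the sets did not overlap. *Slc7a6os* also divided along the sets, from 10.08 to 10.38 in set A and 9.51 to 10.03 in set B. These were 2 of 166 members (1.2%), beside 54 of the 11888 probes tested (0.454%).

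Between extreme and minimal males the *Slc48a1* difference was 0.85 ± 0.24 (adjusted p = 0.112), and it was 0.25 with the set as a block (adjusted p = 0.527). Extreme males had 9.56, 9.64, 9.54, 10.18 and 9.87, and minimal males 8.81, 8.86, 9.49 and 8.48, of which only the rat at 9.49 belonged to set B. What the sets are is not given in the labels, and their part in this difference cannot be told apart from the groups for the 10 extreme rats, which all lay in set B.

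**Figure D3:**
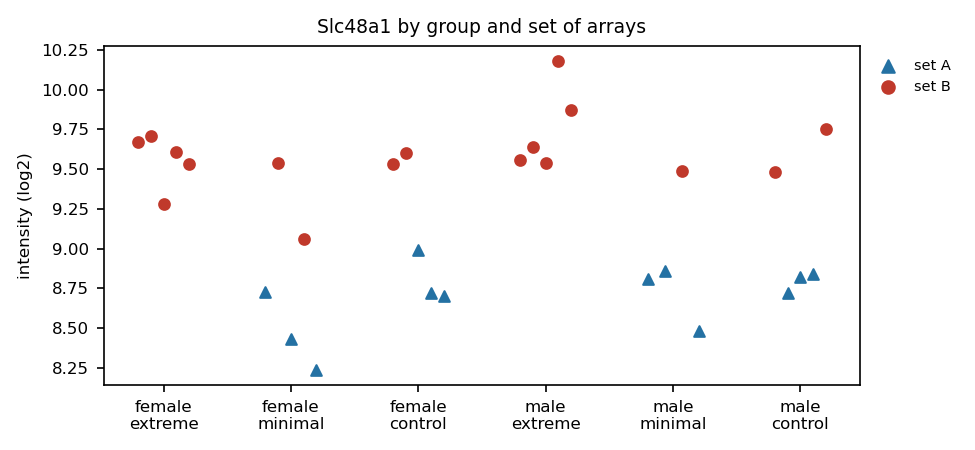
Intensity (log2) of *Slc48a1*, 1 point per rat, in the 6 groups, with blue triangles for set A and red circles for set B. All set A rats lie at or below 8.99 and all set B rats at or above 9.06, and the extreme groups hold only set B.

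The spread between rats of a group was wide for a few members. The SD within groups had a median of 0.15 over the members, the same as over all probes, and 12 members (7.23%) lay above 0.3, beside 6.01% of all probes. The widest were *Slc17a6* (0.90), *Slc4a2* (0.76), *Slc3a1* (0.71), *Slc5a5* (0.56), *Slc16a6* (0.41) and *Slc48a1* (0.40).

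*Slc17a6*, the vesicular glutamate transporter typical of thalamus and other subcortical neurons, was 12.18 in female extreme 4, 12.03 in female control 5, 11.82 in female extreme 5, 11.77 in male minimal 2, 11.30 in female minimal 4 and 10.92 in female control 2, and at most 10.57 in the other 23 rats. The thalamus marker *Prkcd* was 10.56, 10.21, 10.64 and 10.76 in the first 4 of these rats and 9.49 in female control 2, and it was 7.81 in female minimal 4. Male extreme 3 and 4 and male control 3 had *Prkcd* at 9.05, 8.73 and 8.77 with *Slc17a6* at 9.71, 9.91 and 9.93. Of 3 thalamus markers on the array, 2 passed the filter and *Tcf7l2* did not. Their summed intensity ran from 400 to 1914 in extreme, 397 to 520 in minimal and 372 to 1472 in control females, and from 438 to 786, 375 to 2016 and 389 to 668 in extreme, minimal and control males. The part of neighbouring tissue in the *Slc17a6* values was not tested.

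The 4 rats with the highest mean of the 8 choroid plexus markers kept were female extreme 5, female minimal 3, female control 2 and male minimal 2. Each of the 8 markers had its 4 highest values in these rats, which follows in part from picking the rats by the markers. The members were then searched for the same pattern, and 8 members had their 4 highest values in these 4 rats. These were *Slc5a5*, *Slc4a2*, *Slc16a6*, *Slc16a13*, *Slc31a1*, *Slc12a4*, *Slc16a3* and *Slc66a3*, or 4.82% of the members, beside 133 of 11888 probes (1.12%). The mean of the markers was 10.12, 10.61, 10.32 and 10.07 in the 4 rats in that order and at most 8.95 in any other. The choroid plexus is the epithelium that makes cerebrospinal fluid. Its markers *Kcnj13* and *Prlr* did not pass the filter.

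*Slc4a2*, an anion exchanger of the basolateral membrane of that epithelium, was 10.66 in female extreme 5, 10.35 in female minimal 3, 10.29 in female control 2 and 9.62 in male minimal 2, and from 7.88 to 9.04 in the others. *Slc5a5*, the iodide transporter, was 8.28, 9.06, 8.38 and 8.28 in those rats, and from 6.89 to 7.21 in the others, close to background. *Slc31a1*, the copper importer, was 8.68, 9.13, 8.82 and 8.97, and 7.64 to 8.33 in the others. The summed intensity of the choroid plexus markers ran from 5236 to 52763 in extreme, 5354 to 54278 in minimal and 4707 to 56540 in control females, and from 4634 to 9138, 4438 to 51780 and 4625 to 14374 in extreme, minimal and control males. None of these 8 members passed in any contrast, and the part of choroid plexus tissue in their values was not tested.

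*Slc3a1*, a heavy chain that pairs with amino acid transporters, varied from 8.12 to 10.68 and matched neither set of rats. Its highest values were 10.68 in male extreme 4, 10.61 in female control 4 and 10.59 in male control 4. It averaged 9.05 ± 0.52 in extreme, 9.94 ± 0.50 in minimal and 9.80 ± 0.85 in control females (SD), with a difference of −0.89 ± 0.41 between extreme and minimal females that did not pass (adjusted p = 0.243).

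**Figure D4:**
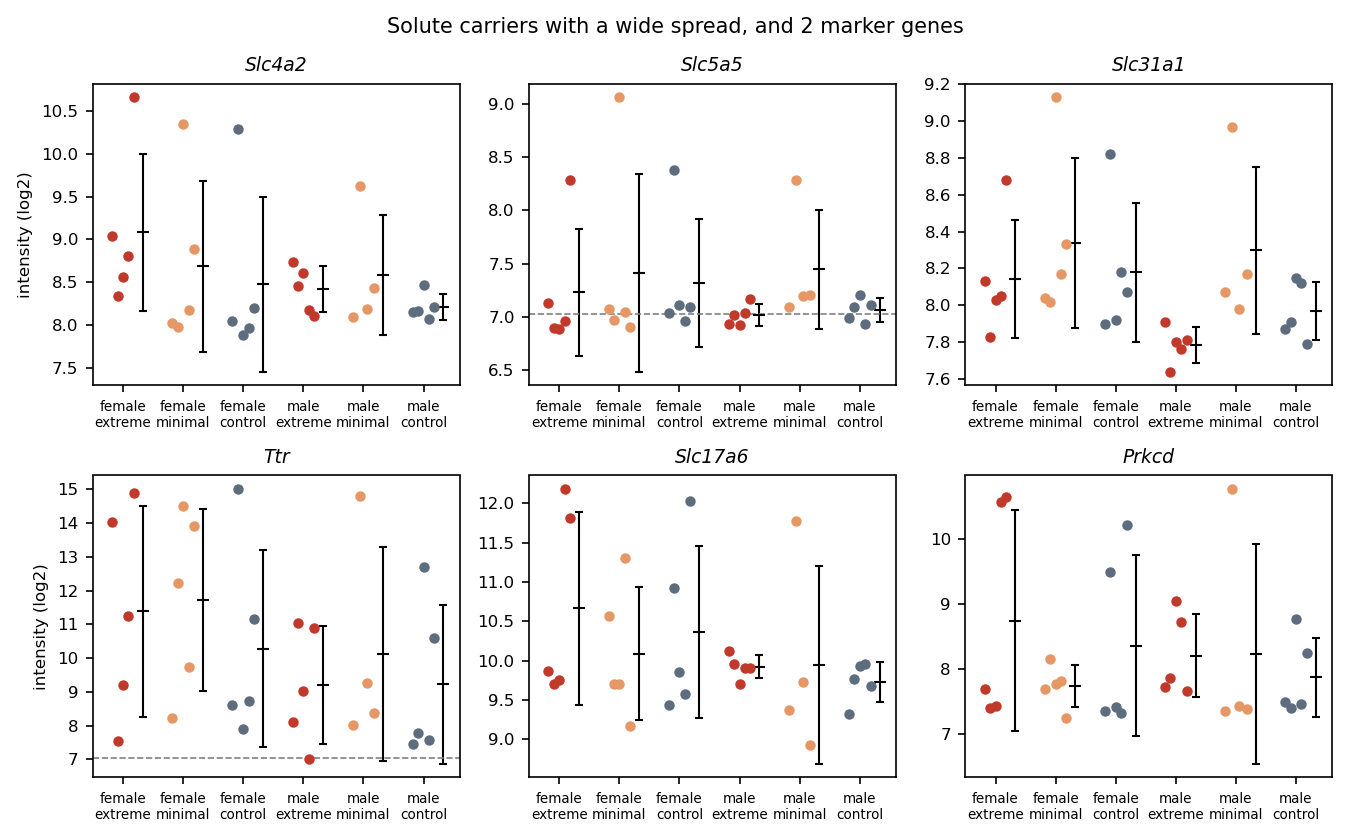
Intensity (log2) of *Slc4a2*, *Slc5a5*, *Slc31a1* and *Slc17a6* with the choroid plexus marker *Ttr* and the thalamus marker *Prkcd*, 1 point per rat, in the 6 groups; black bars are the group mean and SD, and dashed lines mark the background limit of 7.03. Some rats of the female groups and 1 male minimal rat stand far above the rest of their groups on the carriers and on the markers. *Ttr* also varies widely among the other rats.

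No member passed the test of a difference between the sexes in the effect of exposure or of response. For extreme against control rats 10 members had an unadjusted p below 0.05 in limma, for minimal against control 8 and for extreme against minimal 14 (6.02%, 4.82% and 8.43%, beside 8.5%, 8.99% and 7.84% of all probes). After adjustment 0.0168% (0.00841% in each direction), 0% and 0% of all probes passed in these 3 contrasts. Those with the smallest p in the first were *Slc17a5* (0.41 ± 0.14, male effect minus female effect), *Slc29a3* (−0.46 ± 0.15), *Slc15a4* (given above), *Slc38a1* (0.35 ± 0.13) and *Slc16a1* (−0.37 ± 0.14). In the second they were *Slc6a8* (−0.47 ± 0.14), *Slc22a23* (0.37 ± 0.11), *Slc15a4* (−0.37 ± 0.13), *Slc28a2* (−0.43 ± 0.16) and *Slc25a46* (0.44 ± 0.18). In the third they were *Slc16a1*, *Slc38a2* (both given above), *Slc37a4* (0.33 ± 0.11), *Slc30a2* (0.33 ± 0.11) and *Slc24a4* (0.37 ± 0.13). A call in females and none in males for a member is therefore not shown to be a difference between the sexes.

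Other genes of the same systems were read from a list of pumps, partners and regulators, of which 18 probes were tested. Of these, 1 passed between extreme and control females, 2 between extreme and minimal females, 1 between extreme and control males and 0 between extreme and minimal males. Those are 5.56%, 11.1%, 5.56% and 0% of the list, beside 1%, 3.79%, 0.622% and 0.0757% of all probes. *Sgk1*, a kinase that raises the surface level of several carriers, was higher in extreme females by 1.07 ± 0.19 against controls (adjusted p = 0.00437) and 0.88 ± 0.19 against minimal females (adjusted p = 0.00822). *Mpc1*, a subunit of the mitochondrial pyruvate carrier, was higher by 0.34 ± 0.08 in extreme than in minimal females (adjusted p = 0.0114) and by 0.36 ± 0.08 in extreme than in control males (adjusted p = 0.028). Its partner *Mpc2* had differences of −0.43 ± 0.13 and −0.41 ± 0.13 in those contrasts, which did not pass (adjusted p = 0.0666 and 0.123). The calls of *Sgk1* and *Mpc1* are given without the set as a block. *Bsg*, the chaperone that brings *Slc16a1* to the membrane, differed by −0.02 ± 0.11 between extreme and minimal females (adjusted p = 0.961). Of 16 other transporter genes, such as members of the Slco family and of Slc35 with other letters, 0 passed in those 4 contrasts, with 2, 2, 2 and 3 at an unadjusted p below 0.05 in limma. Those are 12.5%, 12.5%, 12.5% and 18.8%, beside 13.2%, 18.4%, 16.5% and 15.1% of all probes.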

How the data were processed

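Hippocampal total RNA of 30 rats was hybridised to Illumina arrays, per the labels' protocols, and values were present for 29. The deposited values were read as log2 intensity, since they ran from 6.31 to 15 with a median of 6.96 on every array. Their sorted columns agreed within 0.00119, so the authors' values had been quantile normalised. The sources used here give neither software nor background correction. A second table, with 60 columns that match no label, was not used. The filter asked for values over 7.03 on at least 5 arrays, a limit set 3 SD (0.109) over the mode of 6.7, and it left 11888 of 22523 probes.

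The 6 groups were fitted together with limma 3.58.1 in R 4.3.3 (23 residual and 5.06 prior degrees of freedom), with two-sided p-values adjusted by Benjamini-Hochberg over all probes kept and a threshold of 0.05. There were 11 comparisons. Where 1 gene had several member probes, each was read on its own (8 genes, of which at most 1 probe each was kept). All 278 member probes matched RefSeq by gene ID, with 0 changed symbols. Figures were drawn with matplotlib 3.10.9 in Python 3.11.15. Fits were tested on simulated data. The set of arrays came from 8 of 16 probes with a gap of at least 0.8. Alternatives were other filters, cyclic loess, array weights, blocks for replicate number and set, each sex alone, and leaving out each rat. The number of rats limits the precision.

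The members, the marker lists and the genes named were chosen with earlier results of these data known. Named were all members past the threshold, the 5 with the smallest p where fewer than 5 passed, and a list of well-known carriers. Of that list, *Slc6a17*, *Slc32a1*, *Slc12a2*, *Slc16a7* and *Slc25a12* were not analysed here. Other members and the marker genes named were picked after their values were seen.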

Additional observations from a re-analysis of the deposited data

Results flagged for a closer look

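The values of 44 named members were searched in 6 groups for a rat set apart from its group by a gap that is large against the range (Dixon's 95% limit). Of 264 groups searched, 17 (6.44%) held such a rat, where chance gives about 1 in 20. In extreme females, rat 1 was high for *Slc41a1* (7.11, the next at 6.82) and for *Slc22a23* (7.51), and rat 2 was high for *Slc30a7* (7.20). In minimal females, rat 3 was low for *Slc6a8* (10.27), rat 5 was low for *Slc39a10* (6.85) and rat 1 was high for *Slc27a1* (9.43). In control females, rat 4 was low for *Slc16a1* (9.51) and rat 3 was high for *Slc49a4* (10.92).

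In extreme males, rat 4, whose array had the lowest correlation with the others, was low for *Slc9a2* (7.14) and *Slc6a6* (7.62) and high for *Slc4a10* (8.21). Rat 3 was low for *Slc25a16* (7.27), rat 2 high for *Slc29a1* (8.18) and rat 5 low for *Slc27a1* (8.84). In minimal males, *Slc7a11* was high in rat 3 (7.34) and *Slc22a5* in rat 2 (8.50), and in control males *Slc22a5* was low in rat 5 (8.03).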

How the results depend on the processing

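No named result reversed. Outside the settings that leave out 1 rat, 439 values of named members stayed on their side of the threshold, 17 lost it and 6 gained it. Counts moved as follows. With array weights, 10 members passed between extreme and control females (3 in the fit reported), 9 between extreme and minimal females (5) and 2 between extreme and control males (1), or 6.02%, 5.42% and 1.2% of members beside 3.5%, 5.86% and 0.488% of all probes. With the set of arrays as a block, 2 passed between extreme and minimal females, and the same number did without the 4 arrays highest in choroid plexus markers. Between extreme and control males, 0 passed with males fitted alone and 2 with the choroid plexus marker mean as a covariate. Both choroid plexus settings were chosen after the data were seen. For exposed against control rats of both sexes, 0 passed with no filter, with a stricter filter, with the replicate block, with the marker mean as a covariate and without the 4 arrays, and the set block called *Slc22a17* (0.28, adjusted p = 0.0437) in place of *Slc41a1*. Between the sexes 0 passed without the 4 arrays. The stricter filter removed *Slc41a1*, which was not above background on every array. The cause of the other changes was not tested.

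Leaving out each rat in turn gave 1 to 6 members between extreme and control females (1 without female control 4, 6 without female control 2 or male extreme 4), 2 to 7 between extreme and minimal females (2 without female minimal 1 or 3, and 3 without female minimal 5 or female extreme 1, 2, 3 or 5), 1 to 2 between extreme and control males (2 without female control 2, female minimal 4 or 5, female extreme 1, male control 5 or male extreme 3 or 5), 0 to 1 between extreme and minimal males (*Slc48a1* without male minimal 3, *Slc25a1* without male extreme 5), 0 to 1 for exposed against control rats and 0 to 1 between the sexes (0 without male minimal 1). Rats with the same replicate number had a median r of −0.0144 (70 pairs, 21 over 0.1), beside −0.0061 for other numbers (280 pairs, 96 over 0.1). Of the arrays, 2 correlated best with their own number. The replicate numbers only count the rats of each group, so these values cannot show whether any animals were paired. With the replicate block 3, 7 and 1 members passed in the female contrasts of extreme with control and minimal rats and between extreme and control males.

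Members near the background limit of 7.03, such as *Slc41a1*, *Slc2a3* and *Slc25a22*, are measured with little signal. Of the members, 112 were not tested.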
